A study of Mus musculus with 2 samples.

Results

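Dppa2, Dppa3, Dppa4, Dppa5a, Tdgf1, Utf1, Fgf4, Gdf3 and L1td1 are 9 genes whose transcripts mark undifferentiated mouse embryonic stem cells. Positions called as m6A on these genes were collected from any of 17 deposited site lists. They are the unique genome positions and strands that fell within an annotated exon of the gene on the same strand. This gave 202 positions, out of 160430 in all lists, and the 9 genes were among 10912 genes with at least 1 listed position. Each of the 9 genes had positions in both libraries, and none of the 202 positions was shared with an exon of another gene on that strand.

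The lists come from Nanopore direct RNA sequencing of poly(A) RNA from mouse 129 embryonic stem cells. The WT library is from unedited cells, and the KO library is from Mettl3 knockout cells, in which exons 5 to 7 of Mettl3 had been exchanged on both alleles for puromycin and hygromycin resistance genes, with selection by both drugs. There was 1 library per condition and no replicate, the number of clones behind the KO library was not stated, and WT and KO cells differ by the drug selection as well as by the deletion. No test between the libraries was therefore possible, and the intervals below cover counting error only. Tombo, MINES, Nanom6A, m6Anet, ELIGOS and Epinano (single-mode) each gave a WT list and a KO list, as did xPore, which models both libraries together, while Nanocompore, DiffErr and DRUMMER each gave 1 list in which WT was set against KO (called comparison lists here). A list holds bare positions, with no scores, rates or read numbers, so a position missing from a list may be unmodified, below the tool's cut-off, too thinly covered or of a 5-mer outside the tool's models, and these cannot be told apart. A listed position is a call by a tool and not a proven m6A site. In the study, mass spectrometry found almost no m6A in the KO mRNA. Sites that single-mode tools called in KO were taken there to imply many false positives. The published models of MINES are for AGACT and GGACH (H as A, C or T), while the authors changed its code to score every RRACH site. Of all positions in its lists 99.8% were AGACT or GGACH, as were all of those on the 9 genes.

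m6A is set on nascent mRNA by the Mettl3-Mettl14 complex, mostly at RRACH sequences (R = A or G, H = A, C or T) and preferentially in long exons and around stop codons. Reader proteins of the YTH family bind the mark and promote decay of the mRNA. In mouse embryonic stem cells, loss of Mettl3 is known to prolong the life of transcripts of the undifferentiated state and to hinder the exit from it. The 9 genes cover several roles in these cells. Dppa2 and Dppa4 are chromatin-bound partners with a SAP domain, Dppa3 (Stella) protects DNA methylation in the early embryo and marks germ cell precursors, and Dppa5a is a KH-domain protein that binds RNA. Utf1 is a chromatin-associated factor, Tdgf1 (Cripto) is a membrane-anchored co-receptor for Nodal, Gdf3 and Fgf4 are secreted ligands of the TGF-beta and FGF families, and L1td1 is an RNA-binding protein descended from a LINE-1 open reading frame.

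The label of the cells was checked at marker transcripts. All 6 embryonic stem cell markers (Pou5f1, Sox2, Nanog, Zfp42, Esrrb and Tfcp2l1) had positions in both libraries, with 167 positions in WT or comparison lists and 140 in KO. Of 6 primitive endoderm markers, Sox17 (12) and Lama1 (22) had 34 positions in WT and 0 in KO, and the other 4 had none in either library. Of 6 mesoderm and ectoderm markers, Eomes (3) and Nes (3) had 6 positions in WT and 0 in KO. Of 6 feeder fibroblast markers, Thy1 had 3 positions in WT and 1 in KO, and Col1a1 had 0 in WT and 3 in KO. These marker counts moved between the same libraries as the counts below, and their part in the results was not tested. At Mettl3 itself, the replaced exons had 2 positions in WT and 0 in KO, the exons before them 7 and 0, and those after them 4 and 5. In bulk RNA, fewer cells that express a gene and less of its RNA per cell cannot be told apart.

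In WT or comparison lists 172 of the 202 positions were present, and 151 were present in KO lists. Of the 172, 121 were also listed in KO by at least 1 tool, which is 70.3% (95% Wilson interval 63.1% to 76.7%). The share was 59% over all WT or comparison positions and 80.2% (73.6% to 85.6%) on the 6 embryonic stem cell markers. The other 51 of the 172 positions were absent from every KO list, and 30 positions were listed only in KO, which is 19.9% of the 151 KO positions (14.3% to 26.9%) against 29.2% of all KO positions. Every one of the 202 positions read RRACH on the reference genome, which is of strain C57BL/6J, so that a variant of the 129 cells would not show. The transcripts of the 9 genes hold 285 RRACH positions, of which 201 were listed at least once (70.5%, 65% to 75.5%), whereas 30.5% of the RRACH positions in all coding transcripts with a listed position were. The tools thus listed a larger part of the RRACH positions on these transcripts than over all such transcripts, and the read depth of the genes, which bears on this, is not known.

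**Figure D1:**
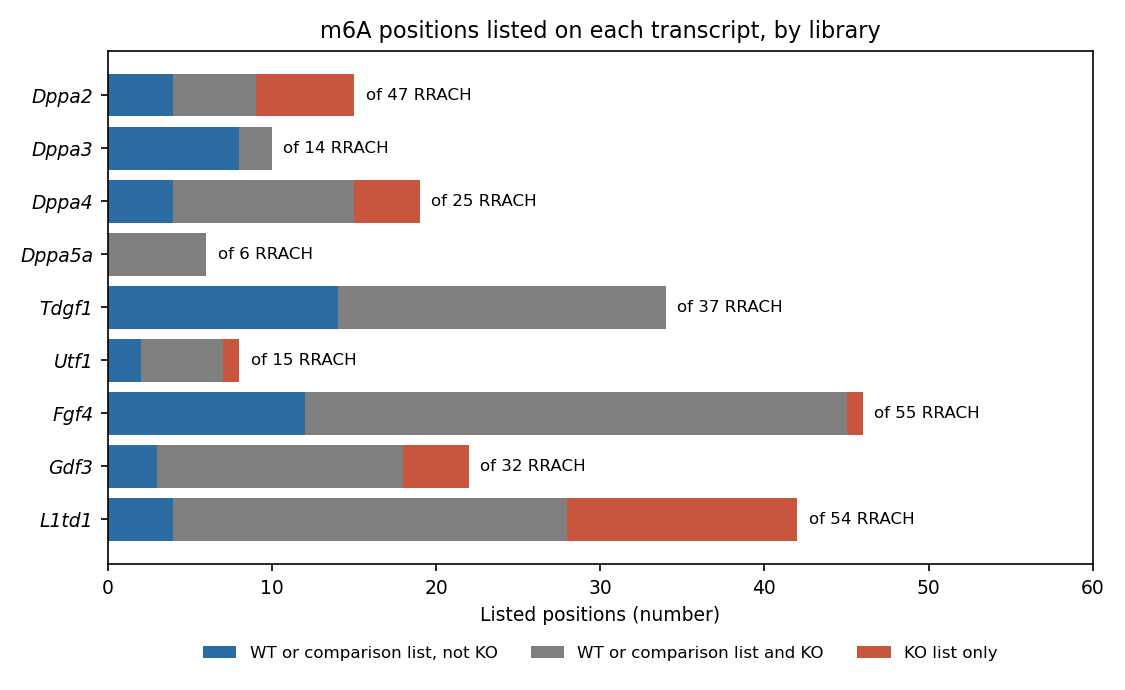
Number of listed positions (x axis) on each of the 9 genes (y axis), divided into positions in WT or comparison lists but not in KO, positions in both, and positions in KO lists only. The text beside each bar gives the number of RRACH positions on the transcript, and the L1td1 bar includes 1 position outside the transcript used. All 6 Dppa5a positions were in both libraries, 8 of 10 Dppa3 positions were missing from KO, and L1td1 had the most KO-only positions, with 14.

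The comparison lists held 22 of the 172 positions (12.8%, 8.6% to 18.6%), against 2.45% of all WT or comparison positions. On the 6 embryonic stem cell markers they held 14 of 167 (8.38%, 5.06% to 13.6%). Those of the 9 genes fell in 7 of the 9 genes: 6 in Fgf4, 5 in Gdf3, 3 each in Dppa4, Utf1 and L1td1, and 1 each in Dppa5a and Tdgf1, with none in Dppa2 or Dppa3. Among all protein-coding genes with a WT or comparison position, 16.9% had at least 1 comparison position and 1.21% had at least 5, as Fgf4 and Gdf3 did. Of the 22 positions, 13 were in 1 comparison list, 5 in 2 and 4 in all 3. Every one of the 22 was also in at least 1 WT list, as were 99.7% of all comparison positions, and 21 of them were in the WT list of m6Anet, against 80.5%. Only 4 of the 22 were absent from every KO list (18.2%, 7.31% to 38.5%), against 23.5% of all comparison positions. These 4 were the Dppa4 position 391 nt after the stop codon, the Fgf4 position 237 nt after it, and the Utf1 positions 851 and 11 nt before it.

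By number of tools, 80 of the 172 positions were listed by 1 tool (46.5%, 39.2% to 54%), compared with 65.3% of all WT or comparison positions. At least 5 of the 10 tools listed 22 positions (12.8%, 8.6% to 18.6%), compared with 3.28% of all and 16 of 167 on the 6 embryonic stem cell markers (9.58%, 5.98% to 15%). The 22 of the 9 genes are not the same 22 as the comparison positions, and 17 positions were in both sets. Those with at least 5 tools lay in 6 genes, with 8 in Fgf4, 5 in Gdf3, 4 in L1td1, 2 each in Tdgf1 and Utf1, and 1 in Dppa4. The highest support was 9 tools, at 1 position each of Utf1, Fgf4 and Gdf3, and no position was listed by all 10. These positions were chosen by their WT and comparison lists, so that more listings in WT than in KO follow from the choice. Nanom6A listed all 22 in WT (92% of all positions with at least 5 tools) and 12 in KO (32.4%), and m6Anet all 22 in WT (93.8%) and 4 in KO (23%). At least 1 of the 7 tools with a KO list held 20 of the 22, against 72.2% of all positions with at least 5 tools, and the highest number of KO tools was 4.

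**Figure D2:**
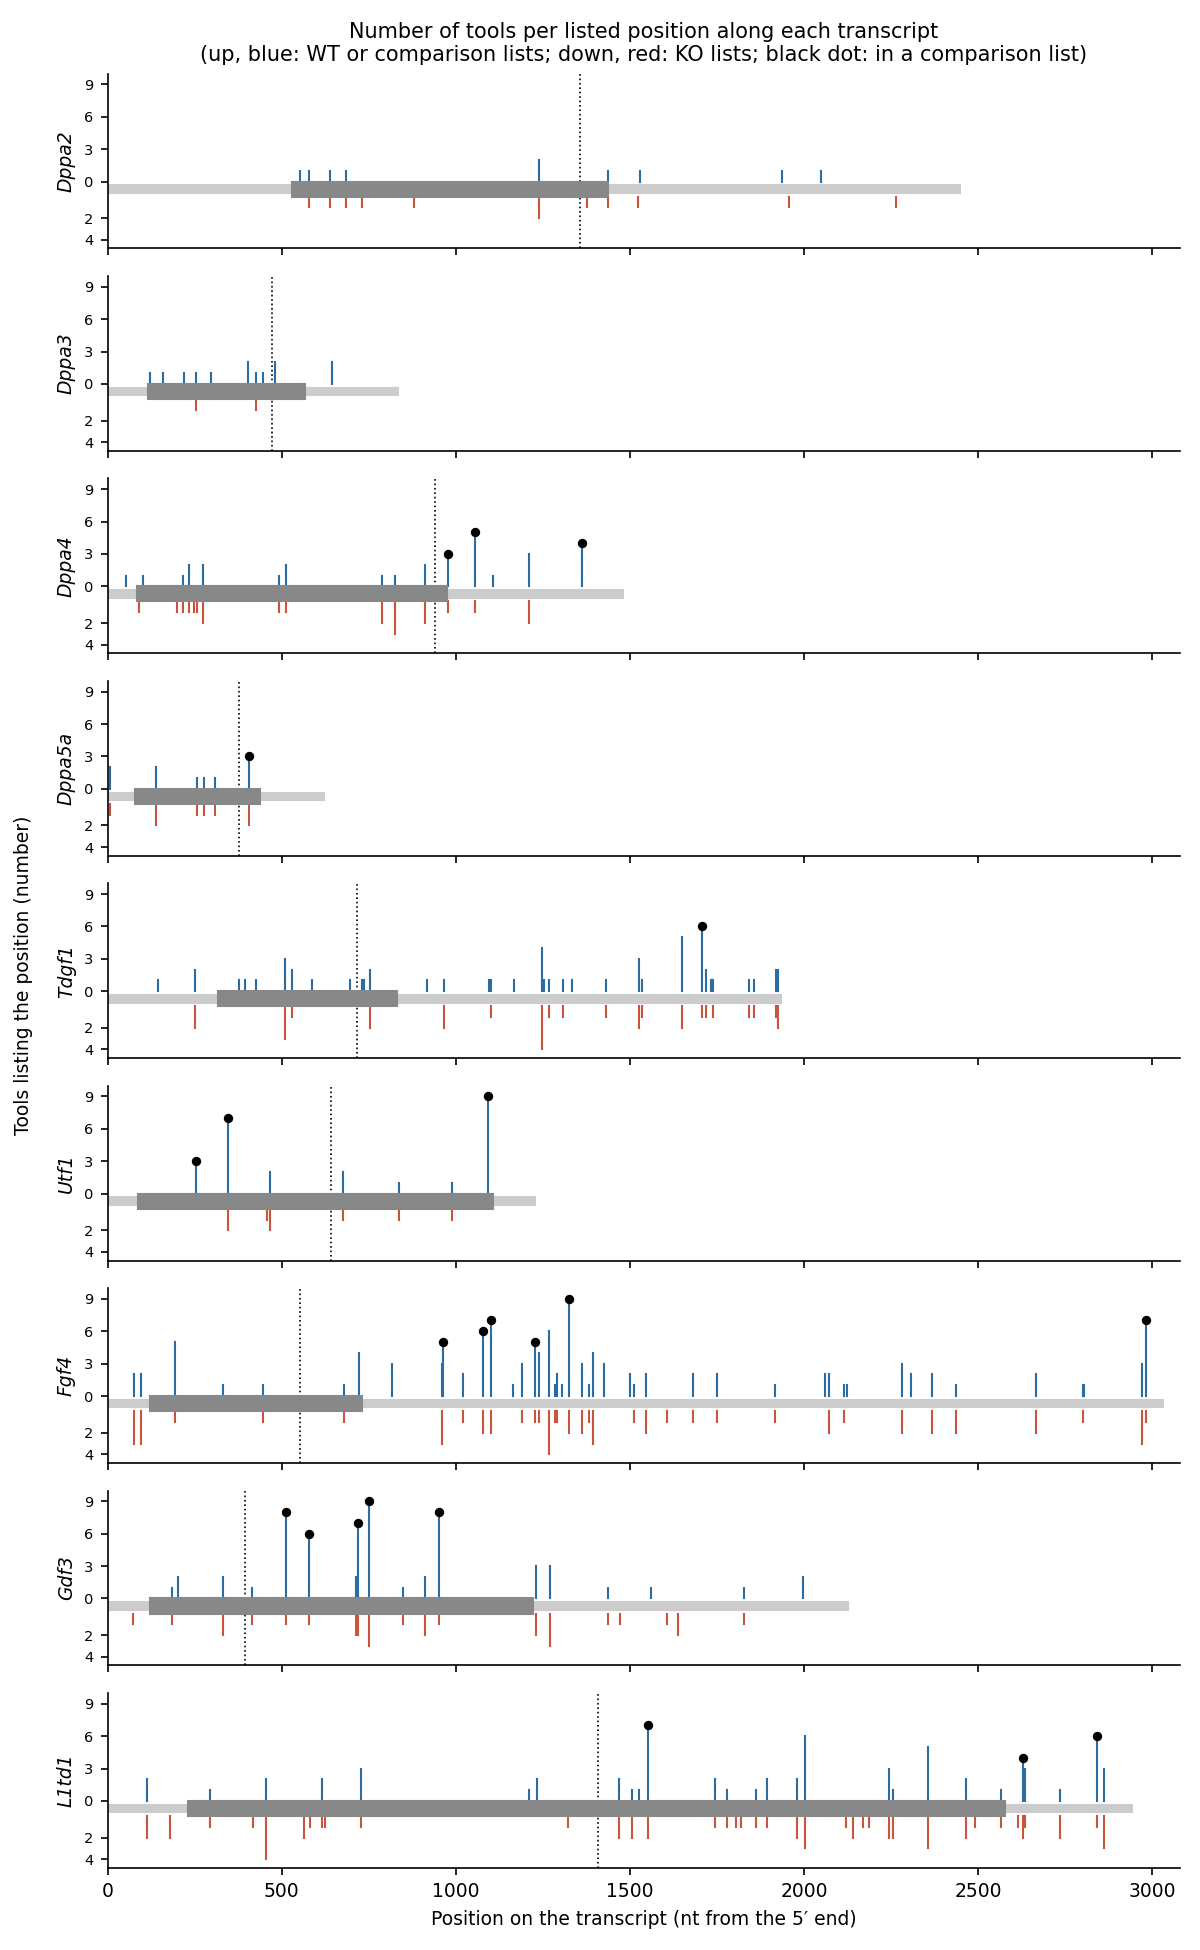
Each row is the transcript of 1 gene, drawn to scale in nt from its 5′ end (x axis), with the coding sequence as the dark box and the start of the last exon as the dotted line. The height of each line gives the number of tools that listed the position (y axis), upwards for WT or comparison lists and downwards for KO lists, and black dots mark positions in a comparison list. The positions with at least 5 WT or comparison tools stand in the last exon, except for 1 in the first exon of Utf1 and 1 in the first exon of Fgf4.

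Dppa2 (ENSMUSG00000072419, plus strand of chromosome 16, 48303908 to 48319723 on GRCm38) and Dppa4 (ENSMUSG00000058550, plus strand, 48283733 to 48294237) are neighbours and encode partner proteins. Dppa2 had 9 positions in WT and 11 in KO, with 5 in both and 6 in KO only, which was the lowest share of its RRACH positions listed among the 9 genes (15 of 47, 31.9%). No Dppa2 position had more than 2 tools in either library. The Dppa2 position with the most tools lies in the coding sequence of exon 7 of 8, 193 nt before the first base of the stop codon, from which all distances are counted here. Its sequence is shown, as for every position singled out, with 10 bases on each side on the strand of the transcript and the 5-mer in capitals.
Dppa2 -193, chr16:48317357-48317377, plus strand: ttcttgctGGACAgacctggg
Tombo and MINES, which takes its input from Tombo, listed this GGACA in WT and again in KO. Nanom6A listed 0 Dppa2 positions in WT and 3 in KO. Among protein-coding genes with at least 3 Nanom6A positions in KO, 6.4% had none in WT, and this contrast was picked out after the values were seen.

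Dppa4 had 15 positions in WT or comparison lists and 15 in KO, with 11 in both (73.3%, 48% to 89.1%). Its 3 comparison positions, all from Nanocompore, lie in the 3′ UTR in exon 7 of 7, and their sequences are shown as the only ones in Dppa4 that a comparison list held.
Dppa4 +6, chr16:48293726-48293746, plus strand: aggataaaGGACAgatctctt
Dppa4 +84, chr16:48293804-48293824, plus strand: tgacgctgAGACTgatagaaa
Dppa4 +391, chr16:48294111-48294131, plus strand: aactgtaaAGACTtggcttat
The AGACT at +84 was listed by 5 tools in all, namely Tombo, Nanom6A, m6Anet and xPore in WT and Nanocompore, and by Nanom6A in KO. The AGACT at +391 was listed by Tombo, Nanom6A, m6Anet and Nanocompore and by no tool in KO. The GGACA at +6, at the start of the 3′ UTR, was listed by Tombo and m6Anet in WT, by Nanocompore, and by Tombo in KO. All 13 listed positions in the coding sequence of Dppa4 stayed out of the comparison lists. Over the whole transcript, m6Anet listed 8 positions in WT and 2 in KO, whereas Nanom6A listed 6 and 9 and Tombo 10 and 8.

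Dppa3 (ENSMUSG00000046323, plus strand of chromosome 6, 122626410 to 122630272) had 10 positions in WT and 2 in KO, the lowest share found again in KO among the 9 genes (20%, 5.67% to 51%). Nanom6A listed all 10 in WT and 0 in KO. Among protein-coding genes with at least 10 Nanom6A positions in WT, 1% had none in KO, and this contrast too was picked out after the values were seen, with the threshold set at the count of Dppa3, as were the like contrasts given for Tdgf1 and L1td1. Tombo listed 2 Dppa3 positions in WT and 2 others in KO, and Epinano listed 1 in WT and 0 in KO. Both KO positions of Dppa3 thus came from Tombo at sites that Nanom6A had listed in WT, so that no single tool listed a Dppa3 position in both libraries. m6Anet, MINES, ELIGOS, xPore and the comparison lists held no Dppa3 position. The 3 positions with the most tools had 2 tools each in WT and none in KO.
Dppa3 -161, chr6:122628768-122628788, plus strand: gtgctgaaAGACCctatagca
Dppa3 -83, chr6:122629910-122629930, plus strand: tttgaacgGGACAgtgagcca
Dppa3 +81, chr6:122630074-122630094, plus strand: ttaagattAAACTttttctgg
The AGACC and GGACA were listed by Tombo and Nanom6A, and the AAACT by Nanom6A and Epinano. Of the 6 stem cell markers, Tfcp2l1 had 11 positions in WT or comparison lists and 2 in KO, whereas Pou5f1 (25 and 25) and Zfp42 (18 and 18) were level, and Nanog (37 and 35), Sox2 (26 and 22) and Esrrb (50 and 38) had somewhat fewer in KO. The read number behind the Dppa3 lists is not known in either library, and whether the level of Dppa3 RNA differed was not tested.

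Dppa5a (ENSMUSG00000060461, minus strand of chromosome 9, 78367052 to 78368177) was the opposite case. Its short transcript of 619 nt holds 6 RRACH positions, all 6 were listed in WT, and all 6 were listed in KO (100%, 61% to 100%). Nanom6A listed all 6 in both libraries and Tombo the same 2 in both, while Epinano listed 1 in WT and 0 in KO. The only comparison position, an AGACC in exon 3 of 3 shown here, was listed by DRUMMER and was also in the WT and KO lists of both Tombo and Nanom6A.
Dppa5a -27, chr9:78367255-78367275, minus strand: atccatgaAGACCctggagct
It lies 29 nt from the nearest exon junction and 27 nt before the stop codon. No listed position fell in the annotated copies Dppa5b and Dppa5c, nor in the pseudogenes of Dppa3 and Tdgf1, although reads of near-identical copies could be assigned to either copy by the aligner.

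Utf1 (ENSMUSG00000047751, plus strand of chromosome 7, 139943789 to 139945112) had 7 positions in WT or comparison lists and 6 in KO, out of 15 RRACH positions, and 3 of the 7 were comparison positions. At least 5 tools listed 2 of the 7, and the 4 outside the comparison lists had 1 or 2 tools each. The comparison positions all lie in the coding sequence, and the 3 sequences below are the only ones of Utf1 that a comparison list held.
Utf1 -851, chr7:139944030-139944050, plus strand: gtgtccccGGACTcggcgcag
Utf1 -758, chr7:139944123-139944143, plus strand: ctactgctGGACCgcaggcag
Utf1 -11, chr7:139944967-139944987, plus strand: atccttggGGACTtgcgccaa
The GGACT at -11, close before the stop codon, was listed by 9 tools: Tombo, MINES, Nanom6A, m6Anet, ELIGOS and xPore in WT, and Nanocompore, DiffErr and DRUMMER. No tool listed it in KO. It was the only one of the 3 positions with 9 tools that was absent from KO. The GGACC at -758, in exon 1 of 2, was listed by 7 tools, among them Nanocompore, and in KO by ELIGOS and Epinano. Both of these KO calls come from tools that read base-calling errors, whereas no tool that reads current listed it in KO. The GGACT at -851, also in exon 1, was listed by Nanom6A, m6Anet and Nanocompore and by no tool in KO. In KO, m6Anet listed none of its 4 Utf1 positions of WT, and xPore none of its 2.

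Tdgf1 (ENSMUSG00000032494, minus strand of chromosome 9, 110939603 to 110946158) had 34 positions in WT or comparison lists, of 37 RRACH positions, and 20 of them in KO (58.8%, 42.2% to 73.6%). It had no KO-only position. Nanom6A listed all 34 in WT and 17 in KO. Among protein-coding genes with at least 10 Nanom6A positions in WT, 22.5% had at most 0.5 times as many in KO. Each of the other tools with a list per library held at most 8 Tdgf1 positions in either one. The 3 positions singled out lie in the 3′ UTR in exon 6 of 6, and they differ in what the KO lists hold.
Tdgf1 +419, chr9:110940277-110940297, minus strand: gagttccaGGACAgacaggcc
Tdgf1 +822, chr9:110939874-110939894, minus strand: ctacaacaGGACTactaaaag
Tdgf1 +878, chr9:110939818-110939838, minus strand: gccaacaaAGACTgaatggca
The GGACA at +419 was listed by Tombo, MINES, Nanom6A and m6Anet in WT and by the same 4 tools in KO, and it was in no comparison list. The GGACT at +822 was listed by 5 tools in WT (Tombo, Nanom6A, m6Anet, ELIGOS and xPore) and by Tombo and Nanom6A in KO. The AGACT at +878 was listed by Tombo, Nanom6A, m6Anet, Epinano and xPore in WT and by DiffErr, and in KO by Nanom6A only. It was the only comparison position of Tdgf1.

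Gdf3 (ENSMUSG00000030117, minus strand of chromosome 6, 122605403 to 122610087) had 18 positions in WT or comparison lists and 19 in KO, with 15 in both (83.3%, 60.8% to 94.2%). The library totals were thus near equal, and the tools behind them were not. ELIGOS listed 6 positions in WT and 2 in KO, Epinano 8 and 2, m6Anet 9 and 5, xPore 2 and 0, and MINES 2 and 0, whereas Nanom6A listed 12 and 12 and Tombo 10 and 8. The tools differed in this way over all positions too. There the ratio of KO to WT positions was 0.259 for ELIGOS, 0.339 for Epinano, 0.446 for xPore and 0.58 for m6Anet. It was 0.703 for MINES, 0.831 for Nanom6A and 0.905 for Tombo. All 5 comparison positions were also the 5 positions with at least 5 tools. They lie in the coding sequence of the long last exon (exon 2 of 2, 1733 nt) within a stretch of 438 nt, and are shown with the AAACT that 3 tools listed in both libraries.
Gdf3 -707, chr6:122607005-122607025, minus strand: ctgactctAGACTtggggccc
Gdf3 -641, chr6:122606939-122606959, minus strand: gtggttcaGGACCggggcgtg
Gdf3 -500, chr6:122606798-122606818, minus strand: aagaacttGGACTtacactta
Gdf3 -470, chr6:122606768-122606788, minus strand: gtcaaagaGGACAgatactcc
Gdf3 -269, chr6:122606567-122606587, minus strand: aacttccaGGACCtgggttgg
Gdf3 +50, chr6:122606248-122606268, minus strand: ctttaataAAACTaccacccc
The GGACA at -470 was listed by 9 tools, all but xPore, and in KO by Tombo, Nanom6A and m6Anet. The GGACC at -269 and the AGACT at -707 were each listed by 8 tools and by 1 tool in KO, Nanom6A and Epinano respectively. The GGACT at -500 was listed by all 6 single-mode tools and by DiffErr, and in KO by Tombo and Nanom6A, and the GGACC at -641 by 6 tools and in KO by ELIGOS. The AAACT at +50 stood apart: Nanom6A, ELIGOS and Epinano listed it in WT and in KO, and no comparison list held it. DiffErr listed all 5 of the coding positions, Nanocompore 3 and DRUMMER 3.

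Fgf4 (ENSMUSG00000050917, plus strand of chromosome 7, 144847367 to 144865243) had the most positions, 45 in WT or comparison lists and 34 in KO, of 55 RRACH positions. In both libraries were 33 of the 45 (73.3%, 59% to 84%). Its transcript of 3030 nt has a 3′ UTR of 2302 nt, which held 38 of the 45 positions. Each tool with a list per library listed fewer Fgf4 positions in KO than in WT. Each did so over all positions too, with ratios of KO to WT positions from 0.259 (ELIGOS) to 0.905 (Tombo). Nanom6A listed 34 and 18, Tombo 23 and 20, m6Anet 23 and 8, and Epinano 14 and 4. ELIGOS listed 8 and 0, xPore 6 and 4, and MINES 6 and 3. The 10 sequences below include the 6 comparison positions of Fgf4 and its 8 positions with at least 5 tools.
Fgf4 -533, chr7:144861568-144861588, plus strand: gccctggcGGACCgagggacc
Fgf4 +233, chr7:144863162-144863182, plus strand: gaatagcgGAACAgacttctt
Fgf4 +237, chr7:144863166-144863186, plus strand: agcggaacAGACTtctttctt
Fgf4 +353, chr7:144863282-144863302, plus strand: cctgcctgGGACCtctgaggc
Fgf4 +374, chr7:144863303-144863323, plus strand: agtgagaaGGACCctgagcgt
Fgf4 +502, chr7:144863431-144863451, plus strand: gatctccaAGACTgatctttg
Fgf4 +542, chr7:144863471-144863491, plus strand: atcttcttGGACCtaccggat
Fgf4 +599, chr7:144863528-144863548, plus strand: ccatttttGGACTggccaaca
Fgf4 +2245, chr7:144865174-144865194, plus strand: tcatgtatAGACAgccccatg
Fgf4 +2257, chr7:144865186-144865206, plus strand: agccccatGGACTgatgggaa
Of the positions with at least 5 tools, 6 lay within 362 nt of each other in the first part of the 3′ UTR, from +237 to +599. The GGACT at +599 had 9 tools: all 7 with a WT list, DiffErr and DRUMMER. In KO it was listed by Tombo and m6Anet. The GGACC at +374 had 7 tools, Tombo and xPore also in KO, and the GGACC at +353 had 6, with Tombo and xPore in KO although neither listed it in WT. The AGACT at +502 had 5 tools and Nanom6A alone in KO. These 4 positions were all in a comparison list and in at least 1 KO list, unlike the fifth comparison position of this stretch, at +237.

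Neighbouring Fgf4 positions could behave differently. The GAACA at +233 and the AGACT at +237 overlap, with their central adenines 4 nt apart, as the 2 sequences show. The GAACA was listed by Tombo, Nanom6A and xPore in WT and by the same 3 tools in KO. The AGACT was listed by MINES, Nanom6A, m6Anet, xPore and Nanocompore and by no tool in KO. Near the 3′ end, the AGACA at +2245 and the GGACT at +2257 lie 12 nt apart. The AGACA was listed by Tombo, Nanom6A and Epinano in both libraries, whereas the GGACT had 7 tools, including Nanocompore and DiffErr, and Nanom6A alone in KO. The GGACC at +542 was listed by all 6 single-mode tools in WT and by Tombo, MINES, Nanom6A and m6Anet in KO, and by no comparison list. The GGACC at -533 in exon 1 was listed by 5 tools in WT and by Tombo in KO.

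Fgf4 signals through FGF receptors to the ERK kinases. Of 16 genes of that pathway, 13 had WT or comparison positions, 247 in all, and 13 had KO positions, 212 in all. Of the 247, 170 were also in KO (68.8%, 62.8% to 74.3%; all positions 59%), and 5 were in a comparison list (2.02%, 0.868% to 4.65%; all positions 2.45%), a share near that of all positions. The receptor Fgfr1 had 23 positions in WT or comparison lists and 21 in KO, and the adaptor Grb2 had 23 and 19.

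L1td1 (ENSMUSG00000087166, plus strand of chromosome 4, 98726734 to 98738480) was 1 of 3 genes, with Dppa2 and Gdf3, that had more positions in KO than in WT or comparison lists. It had 28 positions in WT or comparison lists and 38 in KO, with 24 in both (85.7%, 68.5% to 94.3%) and 14 in KO only. Nanom6A listed 10 L1td1 positions in WT and 27 in KO, and Tombo 17 and 23. Among protein-coding genes with at least 10 Nanom6A positions in WT, 0.752% had at least 2 times as many in KO. The other tools went the other way or were level: Epinano listed 12 and 1, m6Anet 11 and 3, MINES 6 and 3, ELIGOS 4 and 0, and xPore 3 and 3. The positions singled out all lie in the last exon (exon 5 of 5), in the coding sequence and the 3′ UTR.
L1td1 -1025, chr4:98737079-98737099, plus strand: ctggtctgGGACTctaagaaa
L1td1 -574, chr4:98737530-98737550, plus strand: ccgtggagGGACTgaccaagg
L1td1 -220, chr4:98737884-98737904, plus strand: ccaagatcAGACTgacagctg
L1td1 +53, chr4:98738157-98738177, plus strand: gtagagttGGACAgtggacca
L1td1 +266, chr4:98738370-98738390, plus strand: atgggaaaGGACAtgataagt
The GGACT at -1025 had 7 tools, including DiffErr, with Tombo and m6Anet in KO. The GGACT at -574 was listed by all 6 single-mode tools, and the AGACT at -220 by 5 of them. Tombo, MINES and Nanom6A listed both of these again in KO, and no comparison list held them. The GGACA at +266 had 6 tools, among them all 3 comparison tools, and Nanom6A alone in KO. The GGACA at +53 had 4 tools, including Nanocompore, with Tombo and xPore in KO.

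**Figure D3:**
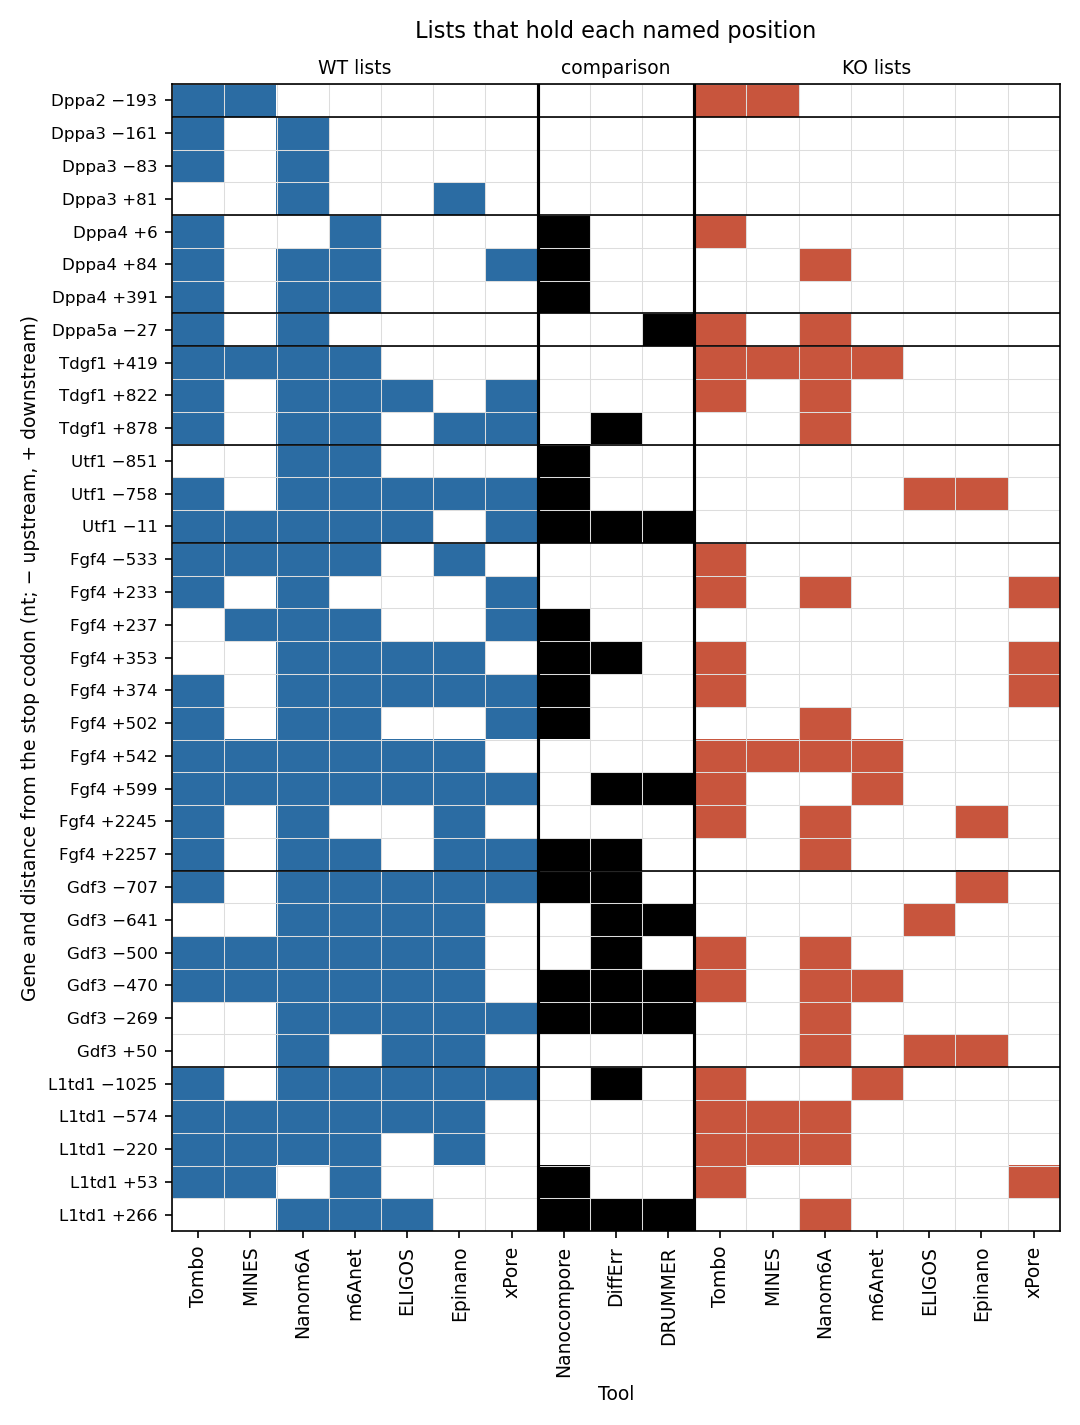
Rows are the 35 positions singled out, by gene and distance from the stop codon in nt, and columns are the 17 lists. A filled cell means that the list holds the position: blue for WT lists, black for comparison lists and red for KO lists. The Utf1 position at -11 is filled in 9 WT or comparison columns and in no KO column, and the Tdgf1 position at +419 is filled for the same 4 tools in WT and KO.

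Both libraries held 8 positions by at least 3 of the same tools (4.65%, 2.38% to 8.91%), against 2% of all WT or comparison positions. They were the Tdgf1 position at +419, the Fgf4 positions at +233, +542 and +2245, the Gdf3 positions at -470 and +50, and the L1td1 positions at -574 and -220. Of the 8, 1 (in Gdf3) was in a comparison list, against 11% of all positions so listed in both libraries. The 7 tools with a list per library differed in how much of their WT list came back in KO. Tombo listed 80 member positions in WT and 80 in KO, with 57 of them in both (71.2%, 60.5% to 80%), against 59.7% over all its WT positions. Nanom6A listed 118 and 96, with 65 in both (55.1%, 46.1% to 63.8%), against 65.4%. MINES listed 19 and 10, with 8 in both (42.1%, 23.1% to 63.7%; all positions 40.2%).

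Except for Tombo, each tool with a list per library held fewer of these positions in KO than in WT. Over all positions each of them, Tombo included, held fewer in KO. The ratios of KO to WT positions there ran from 0.259 (ELIGOS) to 0.905 (Tombo). m6Anet listed 62 and 21, with 16 in both (25.8%, 16.6% to 37.9%; all positions 34.4%), and its ratio of KO to WT positions was 0.339 on the 9 genes and 0.58 over all positions. Epinano listed 44 and 10, with 9 in both (20.5%, 11.2% to 34.5%; all positions 16.5%). ELIGOS listed 21 and 3, all 3 also in WT (14.3%, 4.98% to 34.6%; all positions 11.5%). xPore listed 16 and 8, with 4 in both (25%, 10.2% to 49.5%; all positions 24.9%). Over all positions, too, Tombo and Nanom6A had the highest shares found again in KO, followed by MINES, and Epinano and ELIGOS the lowest. Nanocompore listed 16 positions of the 9 genes, DiffErr 12 and DRUMMER 7, against 2107, 1752 and 1267 over all genes. Positions of 1 gene share its reads, so these shares weigh Fgf4, Tdgf1 and L1td1 most.

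**Figure D4:**
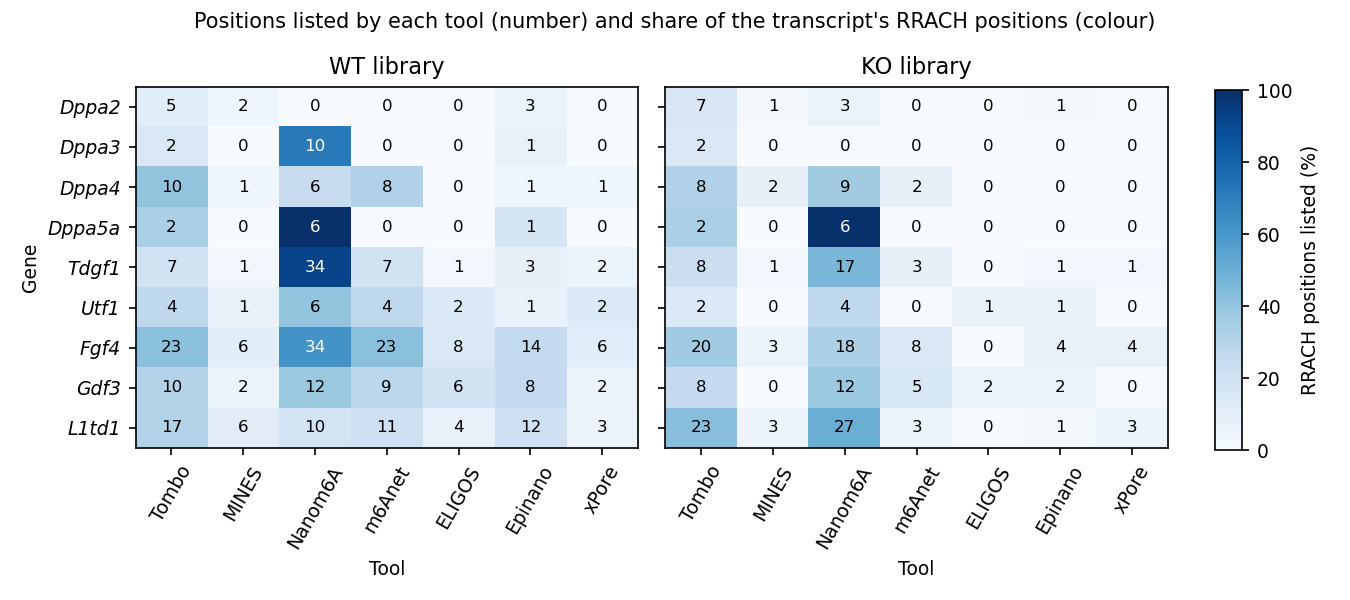
Number of positions (printed) that each tool (x axis) listed on each gene (y axis) in the WT library (left) and the KO library (right), with the share of the transcript's RRACH positions in percent as colour. Nanom6A listed all 6 RRACH positions of Dppa5a in both libraries, 10 Dppa3 positions in WT and 0 in KO, and 34 Tdgf1 positions in WT and 17 in KO. On L1td1 it listed 10 and 27.

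The place on the transcript was compared with that of all listed positions. Of the 171 WT or comparison positions on the transcripts used, 36 were at most 200 nt from the stop codon (21.1%, 15.6% to 27.8%), against 21.9% of all such positions and 20.7% of the RRACH positions of the 9 transcripts. Of the positions with at least 5 tools, 2 of 22 lay in this window (9.09%, 2.53% to 27.8%), namely the Dppa4 position at +84 and the Utf1 position at -11, against 47.7% over all genes. Of the comparison positions 5 of 22 did (22.7%, 10.1% to 43.4%), against 49.7%. Without Fgf4 and Gdf3, whose positions with at least 5 tools lie away from the stop codon, 2 of 9 positions with at least 5 tools were in the window (22.2%, 6.32% to 54.7%), an interval that holds the 47.7% of all genes. Leaving out genes with no such position in the window could only raise the share, so this recount tests nothing. The share of the 22 positions with at least 5 tools depends on the width of the window: within 400 nt lay 8 of the 22 (36.4%), against 67.9% over all genes.

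In the last exon lay 20 of the 22 positions with at least 5 tools (90.9%, 72.2% to 97.5%; all genes 87.4%), as did 20 of the 22 comparison positions (90.9%, 72.2% to 97.5%; all genes 82.3%). The last exon holds 56.5% of the RRACH positions of the 9 transcripts. With at least 5 tools, the positions outside it were in exon 1 of Utf1 (-758) and of Fgf4 (-533). The comparison positions outside it were both in exon 1 of Utf1 (-851 and -758). None of the 22 positions with at least 5 tools was within 100 nt of a junction (upper bound 14.9%), with the nearest at 115 nt in Dppa4, against 8.07% over all genes and 32.3% of the RRACH positions of the 9 transcripts. Of all WT or comparison positions on the 9 transcripts, 49 of 171 lay within 100 nt of a junction (28.7%, 22.4% to 35.8%), against 45.5% of all positions. Among them were 9 of the 10 Dppa3 positions.

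The 5-mers were compared in the same way. All 22 comparison positions and all 22 positions with at least 5 tools had GGAC or AGAC (lower bound 85.1% in each case), against 91.9% of all comparison positions and 98.4% of all positions with at least 5 tools, so these shares were near those of the whole series. By 5-mer, the comparison positions were 6 GGACT, 6 AGACT, 5 GGACC, 4 GGACA and 1 AGACC. Of all WT or comparison positions on the 9 genes, 100 of 172 had GGAC or AGAC (58.1%, 50.7% to 65.3%), against 62.8% over all genes, and among the RRACH positions of the 9 transcripts 53% did. GAAC and AAAC positions, though frequent, reached at most 4 tools. Of the 14 GGACT positions in WT or comparison lists 7 had at least 5 tools, and of the 16 GGACC positions 7 did, against 2 of 17 GGACA and 6 of 25 AGACT positions. The like shares by 5-mer were not counted over all genes, so whether this is particular to the 9 genes was not tested. None of the 15 AGACA or 13 AGACC positions had more than 3 tools. MINES listed only AGACT and GGACH positions on these genes, so positions of other 5-mers could in practice reach fewer tools.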

How the data were processed

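1 WT and 1 Mettl3 KO library of poly(A) RNA were sequenced directly with the SQK-RNA002 kit on a MinION. The authors basecalled the reads with Guppy, aligned them with Minimap2 to the GENCODE M18 transcriptome of GRCm38, ran 10 tools and converted transcript positions to genome positions. The 17 deposited lists hold positions only, without counts, scores or coverage. Both libraries gave similar numbers of reads per the study, but the depth at each site is unknown. Per its methods, the study chose a cut-off for each tool by the F1 score, which joins precision and recall. It took the best sum of the scores against published miCLIP and miCLIP2 sites. The lengths of the deposited lists differ from the site numbers the study gives at these cut-offs, and the cut-offs behind the lists are not given in the sources used here.

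In the re-analysis, a position was counted once per genome coordinate (1-based) and strand. Genes, exons and stop codons came from GENCODE M21 on the same build, and 440 of 440 listed transcript positions of the 9 genes fell on the listed base. Each gene was placed on the coding transcript that held most of its listed positions. Sequences and 5-mers were read from the RefSeq GRCm38 genome on the strand of the transcript. Shares have 95% Wilson intervals. The interval was tried on simulated lists of independent positions. That trial covered neither the placing of real positions on genes nor their clustering in the 9 genes. Positions were singled out if at least 5 of the 10 tools listed them in WT or comparison lists, if a comparison list held them, or if at least 3 tools listed them in both libraries. For a gene with none, the position or positions with the most tools were taken. The members, the other gene lists and these rules were chosen with earlier results of these data known. The alternatives tried were positions joined within 5 bp, 1 site per line, lists without Tombo or without MINES, RRACH only, the KO list of the same tool, single-mode tools only, windows of 100 and 400 nt, the longest coding transcript, other rules for assigning positions to genes, and 5-mers at well supported positions or at positions absent from KO. Leaving out Fgf4 or Gdf3 was added after seeing the data. Python 3.11.15 with numpy 2.4.6, scipy 1.17.1, pysam 0.24.0 and matplotlib 3.10.9 was used. The comparison positions of single genes of the FGF pathway list are not reported here.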

Additional observations from a re-analysis of the deposited data

How the results depend on the processing

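Of 78 values recomputed under another setting, 73 stayed within 1.5 times the count, or within the 95% interval of the share, that the report gives. Some of these settings could not move a value. All 202 positions read RRACH, none lay in an exon of another gene, and the gene named in the lists was always the member. The 73 therefore overstate how firm the values are. Without the Tombo lists, the share of WT or comparison positions also listed in KO moved from 70.3% to 60%, and the same share over all positions from 59% to 47%. The share near the stop codon moved from 21.1% to 12.3% within 100 nt and to 38.6% within 400 nt, and that of positions with at least 5 tools moved from 9.09% to 36.4% within 400 nt, since a window of another width holds another part of the transcript. The share with GGAC or AGAC was 58.1% over all WT or comparison positions and 80.9% at positions with at least 3 tools, and the cause was not tested. With the longest coding transcript no gene changed its transcript. With Fgf4 and Gdf3 left out, 81.8% of the comparison positions lay in the last exon. No paired analysis was possible because there was 1 library per condition. Alternatives that need a read number, a score or a replicate could not be run, and the missing depth limits every statement on a position that a list does not hold.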

Other observations

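Other transcripts of undifferentiated cells, chosen as a list of 20 genes with earlier results known, had 450 positions in WT or comparison lists and 378 in KO. Zfp42, Esrrb and Tfcp2l1 are also among the 6 embryonic stem cell markers, so the 2 lists are not separate. Of the 450, 330 were also in KO (73.3%, 69.1% to 77.2%; all positions 59%). Comparison positions numbered 26 of the 450 (5.78%, 3.97% to 8.33%), against 2.45% of all positions. They lay in 8 of the 19 genes of the list with a WT or comparison position, against 16.9% of such protein-coding genes. Zfp57, a zinc finger protein that keeps imprints methylated, had 7 of them, and 8 of its positions had at least 5 tools, with 10 tools as the highest support. Zfp42 (Rex1) had 5 comparison positions, and all 18 of its positions were in both libraries. Mybl2, a cell-cycle transcription factor, had 4 and Tex19.1 had 3. Trim28, a co-repressor of zinc finger proteins, had 34 positions in WT, the same 34 in KO and no comparison position, and Tet1, a 5-methylcytosine dioxygenase, had 39 and 30 and no comparison position.

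Among positions of the 9 genes outside those singled out, chosen after their values were seen, the L1td1 GAACA 2121 nt before the stop codon had more KO tools than WT tools. Tombo and Epinano listed it in WT, and both listed it in KO together with Nanom6A and m6Anet. The Fgf4 transcript had 2 GAACT positions in its 5′ UTR, 651 and 631 nt before the stop codon, that m6Anet and Epinano listed in WT and that Nanom6A, m6Anet and Epinano listed in KO. The Fgf4 GGACA at 667 nt after the stop codon was listed by Nanom6A, m6Anet, ELIGOS and Epinano in WT and by Tombo, MINES and xPore in KO, with no tool in common. Over all 202 positions, 40 had more tools in KO than in WT or comparison lists and 99 had fewer. Of the 40, 30 were the positions listed only in KO. The comparison tools have no KO list, so the tally leans towards fewer tools in KO. It was not made over the positions of all genes.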
